A study of Mus musculus with 2 samples.

Results

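B-lineage cells of mouse peritoneal tumors were examined in 2 single-cell RNA sequencing libraries, from tumors of mice given control IgG or an Activin A neutralizing antibody. A droplet was counted as a B-lineage cell when it passed the study's limits on genes, UMIs (unique molecular identifiers, the counted RNA molecules) and mitochondrial share, held at least 3 UMIs of Cd79a, Cd79b and Ms4a1 together, held no UMI of Cd3d, Cd3e or Cd3g, and held at most 4 UMIs of C1qa, C1qb and C1qc. By this rule 349 of 15156 kept cells were B-lineage, 214 of 8770 in the control IgG library and 135 of 6386 in the antibody library. Cells with 20 or more Jchain UMIs were treated apart as antibody-secreting cells (13 and 2), and the remaining 201 and 133 cells are called B cells. Every mouse was a C57BL/6 female of 6 to 8 weeks whose peritoneal wall had been abraded before syngeneic ovarian cancer cells (p53-/-, Myc, Hras) were injected into the peritoneal cavity. Control IgG or the antibody was then injected intraperitoneally each day, and the labels give 10 days with 7 mice for control IgG and 8 mice for the antibody. The tumors of a group were pooled, digested, depleted of red cells and dead cells and loaded without sorting into 1 library of 3′ ends. The libraries held 98174850 and 74117462 UMIs, and their kept cells had medians of 5719 and 4660 UMIs. The study and the labels do not give the same numbers of mice, days or the same reagent version. With 1 library per group, the antibody and the handling of a library cannot be told apart, and no test between the groups was possible.

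B cells recognize antigen through a surface immunoglobulin that signals through the paired chains CD79A and CD79B, and they present peptides of that antigen to T cells on MHC class II. After activation they can switch the heavy chain from IgM and IgD to IgG, IgA or IgE, and some become plasmablasts and plasma cells, which enlarge the endoplasmic reticulum and secrete antibody. IgM and IgA are secreted as polymers held by the joining chain, the product of Jchain. In tumors B cells are found both as scattered cells and in lymphoid aggregates, and activins are TGFβ family ligands whose receptors signal through SMAD2 and SMAD3.

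The selecting genes are given as a description. Cd79a had a UMI in 199 of 201 B cells with control IgG and in 133 of 133 with the antibody, Cd79b in 170 and 113, and Ms4a1, which encodes CD20, in 149 and 91. The cells held a median of 9 UMIs of the 3 genes in both libraries. Genes outside the rule checked the name. Ighm had a UMI in 95.5% and 96.2% of the B cells, Bank1, a scaffold of B cell receptor signalling, in 98.5% and 94.7%, and Ebf1, a transcription factor of the B lineage, in 99.5% and 99.2%. T cells, defined here by at least 3 Cd3 UMIs and none of the selecting genes, are the class that should lack these genes. They had an Ighm UMI in 19.7% and 14.4% of cells and a Bank1 UMI in 0.875% and 0.423%, although they were deeper (medians of 4999 and 4404 UMIs) than the B cells (2781 and 2764). Thinned to 2000 UMIs per cell, the Ighm shares were 92.2% and 94.1% in B cells against 9.27% and 7.33% in T cells. All 8 control cells just inside the rule, with exactly 3 selecting UMIs, held at least 2 of Ighm, Bank1, Ighd and Pax5, as did 5 of 6 with the antibody. Just outside it, with 2 UMIs, 8 of 12 and 4 of 10 cells did. The label B-lineage therefore matched the markers, and a few cells of the same kind lay below the threshold.

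The limit on Cd3 removed more cells in the control library. Among cells with 3 or more selecting UMIs, 66 of 283 control cells (23.3%, exact 95% interval 18.5% to 28.7%) and 19 of 155 (12.3%, 7.54% to 18.5%) antibody-library cells held a Cd3 UMI, and the C1q limit removed 3 and 1. The removed cells held a median of 8 Cd3 UMIs in both libraries and medians of 8325 and 7420 UMIs in all. Doublets were not removed otherwise. Of the kept barcodes 19 occurred in both libraries, 1 of them a B-lineage cell with the antibody, and none was B-lineage in both. A pair of droplets among the B cells carried much RNA of other types. A control cell of 14185 UMIs held 993 of the 1017 UMIs of fibroblast markers. A cell of the antibody library with 71803 UMIs, 12.7% of all B cell UMIs there, held 240 of 248 UMIs of cancer markers and 323 of 354 UMIs of Spp1. For this reason the list medians below are also given as a mean over cells, and some without these 2 cells.

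Intervals below are exact 95% intervals (Clopper-Pearson for shares, Poisson for CPM, the UMIs of a gene per 1000000 UMIs of the same cells, and conditional binomial for log2 ratios, which set the antibody library over the control). They cover counting error only, leave out the spread between mice and libraries, and understate the error of a gene whose UMIs sit in a handful of cells. B-lineage cells made up 2.44% (2.13% to 2.79%) of the kept cells with control IgG and 2.11% (1.78% to 2.50%) with the antibody. The log2 ratio was -0.21, and its interval of -0.53 to 0.11 spans 0. B cells alone made up 2.29% and 2.08%. The shares of B cells thus differed by less than counting error, while T cells made up 54.8% and 59.3% of the same libraries. Antibody-secreting cells were 13 cells (0.148%, 0.0790% to 0.253%) and 2 cells (0.0313%, 0.00379% to 0.113%), for a log2 ratio of -2.24 (-5.43 to -0.10). As a share of B-lineage cells they were 6.07% and 1.48%, and the interval of that log2 ratio (-2.04, -5.23 to 0.11) includes 0. With mitochondrial UMIs held to 5% it was -2.33 (-5.52 to -0.19), which lies below 0. When all cells with 20 or more Jchain UMIs were counted whatever their other markers, there were 21 and 4, with a log2 ratio of -1.93 (-3.94 to -0.37). If the limit on Cd3 was dropped, the log2 ratio of the B-lineage share was -0.41 (-0.70 to -0.12), a value that includes the cells with both B and T cell RNA.

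**Figure D1:**
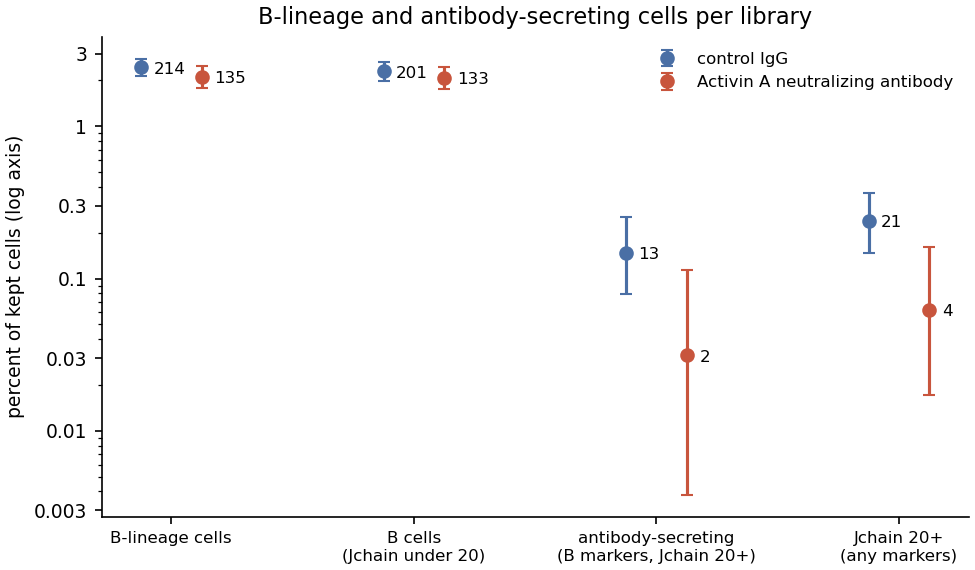
Percent of kept cells (vertical log axis) in the control IgG (blue) and Activin A neutralizing antibody (red) library for B-lineage cells, B cells, antibody-secreting cells and all cells with 20 or more Jchain UMIs, with exact 95% intervals for counting error and the number of cells beside each point. The intervals of the B cell shares (2.29% and 2.08%) overlap widely, and the antibody-secreting shares are 0.148% and 0.0313%.

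The genes that set B cells apart from all other kept cells of the 2 libraries are a description, since the cells were chosen by 3 of them. Bank1 had 2587 and 1628 CPM in B cells against 10.3 and 4.33 CPM in the other cells. Cd79a, Ebf1, Iglc2, Ighd, Ms4a1 and Cd79b followed, then Ly6d, Pax5, Iglc1 and Pou2af1. Ebf1 had 3913 and 3735 CPM and Pax5, the factor that holds B cell identity, 429 and 363 CPM. Further down were Blk, Mef2c, Iglc3, Ighm, Fcmr, H2-Ob, Blnk and the unnamed locus Gm15987. Of these, Fcmr, the IgM Fc receptor, differed most between the libraries apart from Iglc1, with 304 CPM in the control library and 150 CPM with the antibody.

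Most B cells carried the unswitched isotypes. Ighm and Ighd UMIs occurred together in 161 of 201 control B cells (80.1%) and in 111 of 133 with the antibody (83.5%). T cells had an Ighd UMI in 0.583% and 0.343% of cells. A cell was called class-switched when it held at least 3 UMIs of the switched constant genes and more of these than of Ighm and Ighd together. By that rule 6 of 201 (2.99%, 1.10% to 6.38%) and 4 of 133 (3.01%, 0.825% to 7.52%) B cells were switched. In the control library 4 of them were led by Ighg2b and 2 by Ighg3, and with the antibody 1 each was led by Ighg2b, Ighg1, Igha and Ighg3. Single switched cells set the summed levels of these genes. Ighg3 had 32.4 CPM with control IgG and 192 CPM with the antibody, where 99 of its 109 UMIs lay in 1 cell. No Ighe UMI was found in a B cell, which, taking 3 counts of the total as the limit that a count of 0 allows, holds the share of cells with such a UMI to at most 1.49% and 2.26% and says nothing of cells that express the gene at a lower level.

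Among the light chain constant genes, 1 was 2-fold apart between the libraries. Kappa exceeded lambda in 167 of 201 (83.1%) and 117 of 133 (88.0%) B cells, and lambda exceeded kappa in 27 (13.4%, 9.04% to 18.9%) and 14 (10.5%, 5.88% to 17.0%). Iglc1, a lambda constant gene at chr16:19061618-19062071 on the minus strand (GRCm38), had 698 CPM (638 to 762) with control IgG and 175 CPM (142 to 213) with the antibody. Its neighbours Iglc2 (946 and 621 CPM, a log2 ratio of -0.60) and Iglc3 (404 and 302 CPM, -0.41, but -0.022 by the mean over cells) and the kappa gene Igkc (-0.24) were lower by less, each beyond its counting error in the summed UMIs, and reads of the similar Iglc2 and Iglc3 may be split between them. Of the lambda cells, 13 of 27 and 7 of 14 were led by Iglc1, so cells led by it were about as common among the lambda cells of both libraries. The 5 cells with most Iglc1 held 269 of its 496 UMIs in the control library and 42 of 99 with the antibody. In barcodes with under 100 UMIs, taken as free RNA, Iglc1 had 23.7 CPM with control IgG and 4.12 CPM with the antibody, and in all other kept cells 6.96 and 0.810 CPM. Antibody-secreting cells, described below, held 5355 Iglc1 UMIs in 13 control cells and 34 in 2 cells with the antibody, against 496 and 99 in all B cells. The other kept cells include 8 and 2 further cells with 20 or more Jchain UMIs, and without those their Iglc1 level was 4.30 and 0.458 CPM. Among the other cells, dendritic cells had 3.13 and 4.85 CPM. The lower number of antibody-secreting cells thus moved with the Iglc1 level in free RNA and other cells, and its part in the B cell level was not tested. Free RNA was estimated, from genes of other cell types, at 3.26% and 1.75% of the B cell UMIs, and with it subtracted the log2 ratio of Iglc1 was -1.96, against -1.94 before. Variable genes were rarely read from the 3′ ends, with an Ighv UMI in only 25 and 13 B cells.

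Graph clustering of the 334 B cells gave 3 clusters of 151, 140 and 43 cells. The first was led by Gm47782, Zfp53, Brwd1, Atxn7 and Pde2a and the second by Nmd3, Cr2, Ppp1r16b, Pag1 and Cd83, but their sizes became 199 and 93 or 189 and 100 with other seeds, so they are treated as 1 class of 291 cells. The cluster of 43 cells was stable. In 11 other runs, with other seeds or resolutions, a cluster of 42 to 47 cells held at least 42 of its cells. It was led by S100a6, Fcer1g, S100a4, Ifitm3 and Ifitm2. It held 26 of 201 control B cells (12.9%, 8.63% to 18.4%) and 17 of 133 from the antibody library (12.8%, 7.63% to 19.7%), which is a log2 ratio of -0.02 (-0.99 to 0.92). The share was thus alike in both libraries within a wide interval.

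The values that follow describe the S100a6 cluster and carry no test, since the same genes formed it. Both mixed droplets lay in it and held 20.3% of its UMIs. S100a6 had 2296 CPM there against 72.6 CPM in the other B cells, Sox5 888 against 67.9 CPM, Lgals1, which encodes galectin-1, 801 against 59.7 CPM, Anxa2 175 against 11.7 CPM and Zbtb32, a repressor found in B-1 and memory B cells, 66.1 against 2.34 CPM. The cells were deeper, with a median of 6998 UMIs against 2679, and thinned to 2000 UMIs S100a6 was still seen in 81.1% against 12.7% and Sox5 in 62.7% against 8.07% of cells. Fcrl5, an Fc receptor-like protein of innate-like and memory B cells, had 213 against 52.7 CPM and Zeb2 498 against 242 CPM. Genes of recirculating follicular B cells were lower. Ighd had 149 against 926 CPM, Fcer2a, which encodes CD23, 7.09 against 170 CPM, and Cr2, the complement receptor, 0 UMIs against 71.4 CPM. Ebf1 (1339 against 5070 CPM) and Bach2 (541 against 2545 CPM) were lower as well, while Ms4a1 (576 against 534 CPM) and Ighm (1984 against 2279 CPM) were near the rest. Without the mixed droplets, a choice made after seeing the data, S100a6 had 2374 CPM in the cluster, Lgals1 522 CPM, Anxa2 169 CPM, Sox5 1097 CPM, Fcrl5 267 CPM, Ighd 175 CPM, Ebf1 1592 CPM and Ms4a1 723 CPM, while Ighm, at 2466 CPM, passed from below to above the level of the others.

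Of the 10 genes listed as B-1 markers, 7 were seen in at least 20% of the cells of the S100a6 cluster and 0 in the others, but with all cells thinned to 2000 UMIs the count in the cluster was 1, S100a6 itself. Pdcd1lg2, which encodes PD-L2 and is on that list, was lower in the cluster (28.3 against 70.2 CPM). After thinning it was seen in 8.06% against 13.04% of cells. Every other gene of the list was still seen in a larger share of the cluster than of the others. Zbtb32 was seen in 10.65% against 0.208% of cells, Bhlhe41 in 10.8% against 2.23% and Itgam in 9.07% against 1.76%. The thinned cells of the cluster include the mixed droplets. Of the list only S100a6 was among the 10 leading genes of the cluster, which also hold Spp1 and Fn1, genes of other cells in these tumors. Without the mixed droplets Spp1 fell from 815 to 62.24 CPM in the cluster, against 62.05 CPM in the other B cells. Fn1 fell from 312 to 71.1 CPM, against 19.9 CPM. With 1 listed gene among the leading ones and a higher depth, the cluster was given no cell type name. At least 10 UMIs of 14 cell division genes were found in 7 of its 43 cells, 1 of them a mixed droplet, and in 0 of the 291 shallower others. Thinned to 2000 UMIs, 8 of 43 and 19 of 271 cells held at least 3 such UMIs. In the other B cells Hmgb2 (170 UMIs), Pcna (125) and Stmn1 (53) were the most abundant of the 14 genes. Mki67 had 4 UMIs there, Top2a 10 and Birc5 0, against 31, 93 and 40 in the cluster. Whether any of the other B cells were dividing was not tested. The summed level of the 14 genes was 2428 against 453 CPM. Class-switched cells were 4 of 43 and 6 of 291, a count made without thinning although the call needs at least 3 UMIs and the cluster was deeper.

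**Figure D2:**
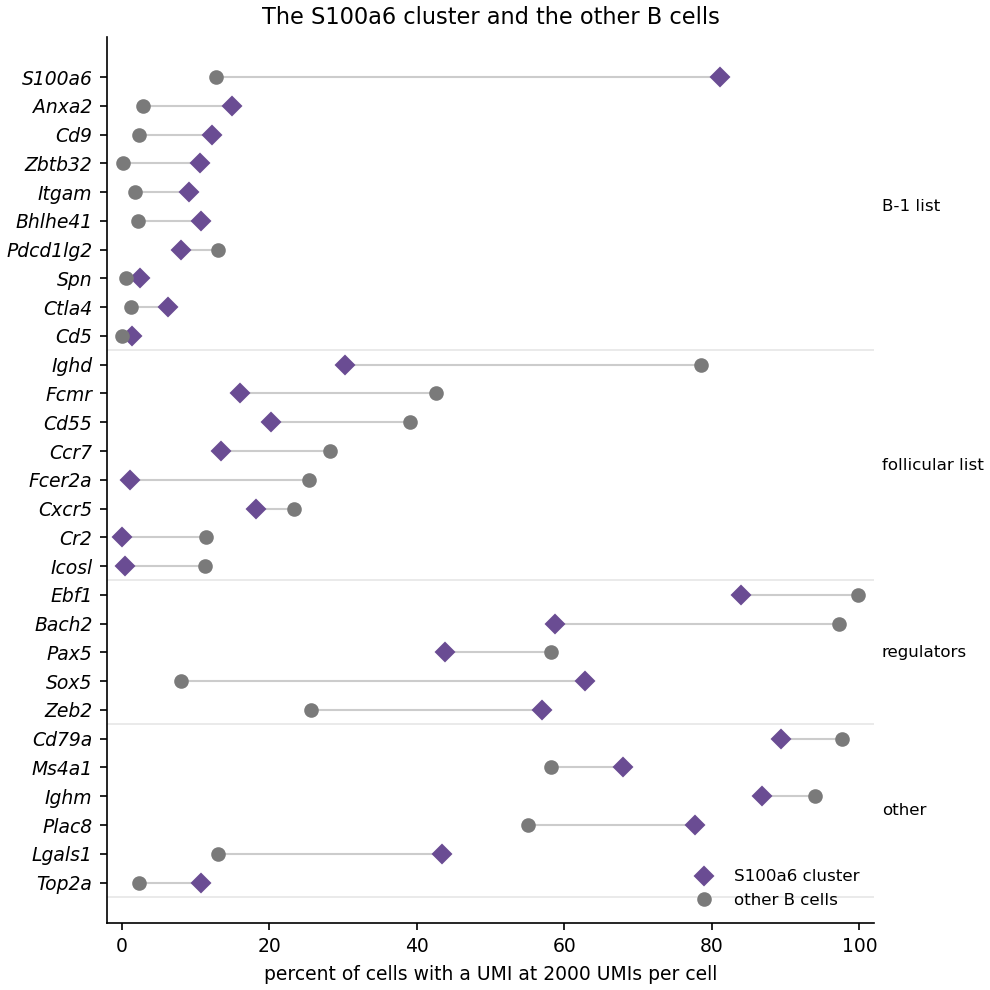
Percent of cells with a UMI of each gene (horizontal axis) after thinning to 2000 UMIs per cell, for the S100a6 cluster (diamonds) and the other B cells of both libraries (circles), grouped by gene list. S100a6 (81.1% and 12.7%) and Sox5 (62.7% and 8.07%) lie higher in the cluster, and Ighd (30.3% and 78.5%) and the other follicular genes lie lower.

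Within the rule, no cell lay between B cells and antibody-secreting cells in Jchain. The lowest held 132 Jchain UMIs with control IgG and 68 with the antibody, and no other B cell held more than 1. They were large libraries, with medians of 17322 and 12748 UMIs per cell. Immunoglobulin genes took from 5.0% to 70.0% of the UMIs of the 13 control cells, with a median of 42.7%, and 39.7% and 68.8% of the 2 cells with the antibody. In each cell at least 98.4% of the heavy chain UMIs came from 1 constant gene. Of the 13 control cells 6 made Ighm (46.2%, 19.2% to 74.9%), 4 Igha, 2 Ighg3 and 1 Ighg2b, and both cells of the antibody library made Ighm. The other 7 control cells were thus switched, beside 2.99% of the control B cells. The cells with 20 or more Jchain UMIs that the rule left out held 1 to 19 Cd3 UMIs. They were 8 in the control library (3 Ighm, 2 Igha, 2 Ighg2b and 1 Ighg2c) and 2 with the antibody (1 Ighg3 and 1 Ighm).

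**Figure D3:**
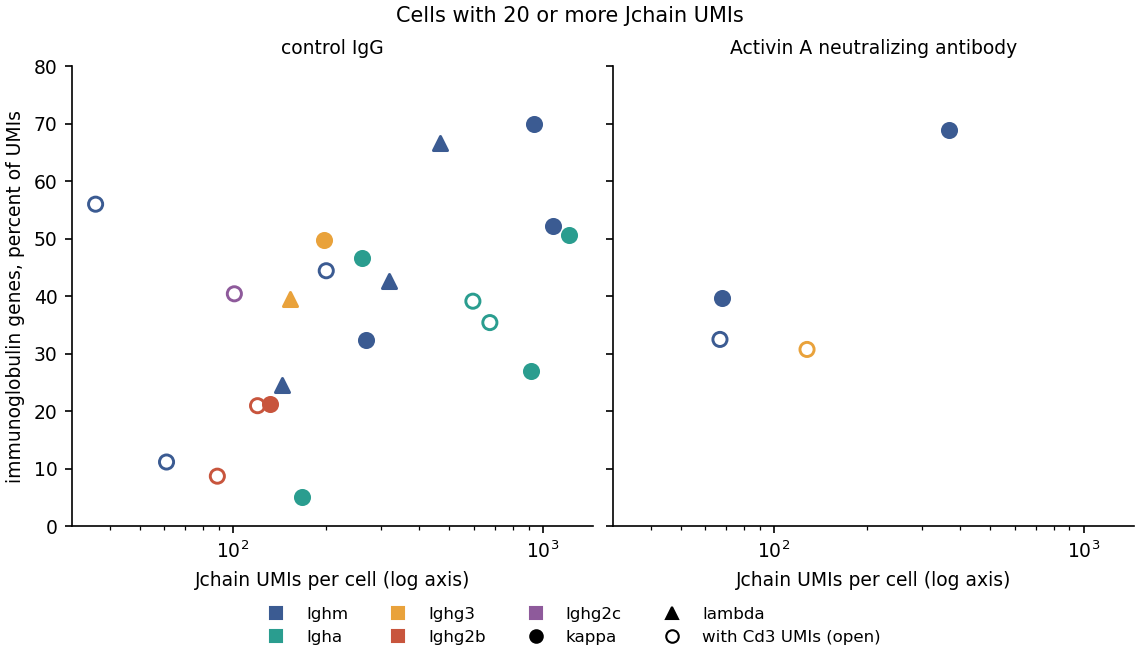
Each point is a cell with 20 or more Jchain UMIs, by its Jchain UMIs (horizontal, log axis) and the percent of its UMIs from immunoglobulin genes (vertical). Color gives the leading heavy chain gene, triangles mark lambda cells and open symbols mark cells with Cd3 UMIs, which the rule left out. The control IgG library holds 13 filled points of 4 isotypes and the antibody library 2, both Ighm.

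In most of the antibody-secreting cells, heavy chain variable genes could be read. A control cell and a cell of the antibody library held 0 Ighv UMIs. Among the 13 control cells, some leading genes rested on as few as 2 UMIs. All 4 lambda cells of the control library were led by Ighv5-17 (chr12:113859149-113859670, minus strand), with 14, 15, 5 and 6 UMIs of it. Of these 4 cells 3 made Ighm and 1 made Ighg3, and their lambda UMIs ran from 2476 to 5213. One of them also held 4040 Igkc UMIs, and 1 kappa cell outside the rule, which made Igha, was led by Ighv5-17 too. Ighv1-26 led 3 of the 4 Igha cells, with 4, 6 and 2 UMIs. No other variable gene led more than 1 of the 13 control cells. With the 8 control cells outside the rule included, Ighv2-9 led 3 cells (2, 5 and 12 UMIs) and Ighv2-6 led 2 (5 and 2 UMIs). Iglv1 was the leading light chain variable gene even in cells with Igkc, and light chain variable genes are therefore not read further. The mice of a group were pooled, so cells that share a variable gene cannot be placed in the same or in different mice. Several of these cells were dividing, with 103, 165, 56 and 115 UMIs of the division genes in 4 of the 13 control cells.

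Compared with B cells, the 15 antibody-secreting cells of both libraries together held a different programme, described without a test because Jchain chose them. Jchain had 26762 CPM against 1.57 CPM. Igkc, Ighm, Igha, Iglc1, Iglc2 and Iglc3 were also among the 15 leading genes. The rest of the leading genes served mostly the endoplasmic reticulum. Derl3, which moves misfolded proteins out of it, had 360 against 2.35 CPM and a UMI in 14 of 15 cells. Creld2, a stress-induced chaperone, had 520 against 14.1 CPM, Fkbp11, a prolyl isomerase, 404 against 14.9 CPM, Mzb1, a co-chaperone of antibody assembly, 5631 against 320 CPM, and Txndc5, a disulfide isomerase, 1119 against 68.1 CPM. Xbp1, the transcription factor of the secretory programme, had 867 against 50.1 CPM and a UMI in all 15 cells. The other 2 leading genes were Slpi, a secreted protease inhibitor (1571 against 10.2 CPM, 8 of 15 cells), and Cpeb3, an RNA-binding protein (240 against 0.783 CPM). The general chaperones Hsp90b1 (4212 against 417 CPM) and Hspa5 (1147 against 417 CPM) were higher in the same cells.

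B cell genes were low in the antibody-secreting cells. Bank1 had no UMI among their 250239 UMIs, so that it was at least 180-fold lower than the 2161 CPM of B cells when 3 counts over the group are taken as the floor. In the same way Pax5 was at least 33.4-fold lower. Ebf1 had 24.0 against 3834 CPM, and Bach2 had 5 UMIs in 4 cells, against 1881 CPM. MHC class II was lower too as a share of UMIs, with H2-Aa at 164 against 2405 CPM and Cd74 at 3409 against 9510 CPM. Immunoglobulin genes took a median of 42.7% of the UMIs of the control antibody-secreting cells. In counts Cd74 had 853 UMIs in 15 cells and 12150 in 334 B cells, so its count per cell was not lower. Of the 41 H2-Aa UMIs, 20 and 18 lay in 2 control cells with 103 and 165 UMIs of the division genes. Ccr10, a receptor that guides plasma cells to mucosal tissues, had 28 UMIs in 6 of the 15 cells (112 CPM) against 0.783 CPM in B cells. Tnfrsf17, the survival receptor BCMA, had 28 UMIs in 10 of 15 cells and none in B cells.

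The promoters of 4 of these genes share a sequence, and are shown because the genes lead or belong to the secretory programme. The endoplasmic reticulum stress response element is read here as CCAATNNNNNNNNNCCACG, or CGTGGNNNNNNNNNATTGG on the other strand. The motif was chosen with the genes known. Each promoter runs from 250 bases before to 50 bases after the start of the gene, on its strand (RefSeq, GRCm38.p6), and capitals mark the 5 fixed letters on each side of the motif.
Derl3, chr10:75893148-75893447, plus strand: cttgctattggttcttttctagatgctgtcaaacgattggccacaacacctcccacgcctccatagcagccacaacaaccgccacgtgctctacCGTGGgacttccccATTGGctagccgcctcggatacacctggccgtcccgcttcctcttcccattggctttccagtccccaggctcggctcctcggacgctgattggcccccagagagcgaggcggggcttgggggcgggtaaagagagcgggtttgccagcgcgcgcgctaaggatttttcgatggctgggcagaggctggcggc
Creld2, chr15:88819396-88819695, plus strand: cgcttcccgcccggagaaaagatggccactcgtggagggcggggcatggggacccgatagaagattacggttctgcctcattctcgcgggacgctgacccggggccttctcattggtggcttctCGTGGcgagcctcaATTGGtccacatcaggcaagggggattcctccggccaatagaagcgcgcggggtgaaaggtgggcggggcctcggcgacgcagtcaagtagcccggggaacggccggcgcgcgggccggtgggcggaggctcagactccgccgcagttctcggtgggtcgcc
Hsp90b1, chr10:86705395-86705694, minus strand: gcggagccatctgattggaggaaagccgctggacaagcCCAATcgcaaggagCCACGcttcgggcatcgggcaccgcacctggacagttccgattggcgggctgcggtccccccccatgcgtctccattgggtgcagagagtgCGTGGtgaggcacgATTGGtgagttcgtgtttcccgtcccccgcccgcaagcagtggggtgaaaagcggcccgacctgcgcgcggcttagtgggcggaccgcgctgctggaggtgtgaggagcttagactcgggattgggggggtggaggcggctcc
Hspa5, chr2:34771840-34772139, plus strand: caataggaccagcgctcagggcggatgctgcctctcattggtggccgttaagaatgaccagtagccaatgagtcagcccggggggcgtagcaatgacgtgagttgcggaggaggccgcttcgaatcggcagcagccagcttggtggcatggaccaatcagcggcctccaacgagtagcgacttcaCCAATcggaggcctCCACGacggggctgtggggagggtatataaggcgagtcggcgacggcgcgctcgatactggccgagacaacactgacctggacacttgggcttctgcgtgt
The match began 156 bases before the start in Derl3, 126 bases before it in Creld2 and 65 bases before it in Hspa5, and Hsp90b1 held 2 matches, the farther one 212 bases before the start. Of the 15 genes listed as secretory programme, 13 had a promoter in the table and 4 of them (30.8%) held the motif, against 39 of all 32851 promoters (0.119%). None of the 10 promoters at hand for the genes that lead B cells over other cells held it. The octamer ATGCAAAT, or ATTTGCAT on the other strand, a motif of B cell promoters, was in 1 of those 10, that of Blnk, and in 1.74% of all promoters. A match of letters is a description and shows no binding.

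The libraries were then compared gene by gene within B cells. Log2 ratios were taken from the CPM of the summed cells plus 10, for the 4141 genes with at least 50 UMIs. Their median was 0.01. At least 2-fold higher with the antibody were 70 genes (1.69%), and at least 2-fold lower were 30 (0.724%). Without immunoglobulin genes these shares were 1.67% and 0.677%. The balance turned under other settings, with 25 higher and 38 lower by the mean over cells and 20 higher and 144 lower without the limit on Cd3. Single cells set many of these values, since 42 of the 70 and 12 of the 30 had more UMIs in 1 cell than in all other cells of the library where they were higher. By the mean of the CPM of each cell, 15 of the 70 and 25 of the 30 were still 2-fold apart. Of the 10 genes with the highest ratios among those with a UMI in at least 5% of the B cells of 1 library, Spp1 (61.9 and 624 CPM), Gm47283, Skap1, Ank, Siva1, Fam162a and Errfi1 had most UMIs of the antibody library in 1 cell, as for Spp1 with 323 of 354. Col3a1 (476 and 97.0 CPM) and Sparc (224 and 56.4 CPM), genes of fibroblast matrix, were lower through 1 control cell that held 326 of 338 and 148 of 159 UMIs. Hip1 (15.5 and 72.3 CPM) and Nr3c2 (70.4 and 22.9 CPM) were seen in 9 and 9 and in 14 and 6 cells.

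A difference of at least 2-fold in all 4 computations (summed UMIs, mean over cells, without the top cell of the gene, without the 2 mixed droplets) remained for 20 genes, which were picked out after their values were seen. Higher with the antibody were 8, Egr1, Egr3, Myc, Mrps12, Irak1, Mtrex, Sbno2 and Klrd1, the last an NK receptor gene with 46 UMIs in 3 cells. Lower were 12, among them Zfp36l2, Tsc22d3, Isg15, Iglc1, Ighg2b, Lyz2, Lgals3, Spata6, Atraid, Gm11342 and Gm43388. Egr1 and Egr3 encode zinc finger factors that antigen receptor signalling induces within minutes. Egr1 had 49.3 CPM (34.3 to 68.5) in 22 of 201 control B cells and 168 CPM (136 to 205) in 30 of 133 cells of the antibody library, which gave a log2 ratio of 1.58. Egr3 had 42.2 CPM in 21 cells and 122 CPM in 38 cells, and Egr2, below the limit of 50 UMIs, 1 UMI in 1 cell and 17 UMIs in 9 cells. Myc, the growth factor response gene, had 46.4 CPM in 26 cells and 125 CPM in 34 cells. For these genes the share of cells with a UMI moved with the level, from 10.9% to 22.6% for Egr1, 10.4% to 28.6% for Egr3 and 12.9% to 25.6% for Myc. The median depths were 2781 and 2764 UMIs, but the means were 3535 and 4264, and the 5 deepest cells of the antibody library held 25.1% of its B cell UMIs. Thinned to 2000 UMIs the shares were 7.47% and 15.9% for Egr1, 6.43% and 21.9% for Egr3 and 8.75% and 17.0% for Myc, whose log2 ratio of 1.26 became 0.64. Mrps12, of the mitochondrial ribosome, had 19.7 and 75.8 CPM, Irak1, a kinase of Toll-like receptor signalling, 26.7 and 74.1 CPM, Mtrex, an RNA helicase, 25.3 and 70.5 CPM, and Sbno2, a transcriptional co-regulator, 31 and 58 UMIs in 26 and 39 cells. The membership rule bears on these genes. Without the limit on Cd3, 7 of the 20 were still 2-fold apart, in the same direction, among them Egr3 (1.36), Myc (1.16), Isg15 (-1.28), Iglc1 (-1.61), Lgals3 (-1.62) and Lyz2 (-2.74). Egr1 then had a ratio of 0.076, Mrps12 0.31, Zfp36l2 -0.94, Tsc22d3 -0.85 and Ighg2b -0.97. With at least 2 selecting UMIs in place of 3, 15 of the 20 were 2-fold apart, and Egr3 (0.76), Klrd1 (0.74), Sbno2 (0.82), Lgals3 (-0.47) and Atraid (-0.18) were not. Klrd1 changed sign after thinning (-0.31) and without cells that held other markers (-0.76).

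**Figure D4:**
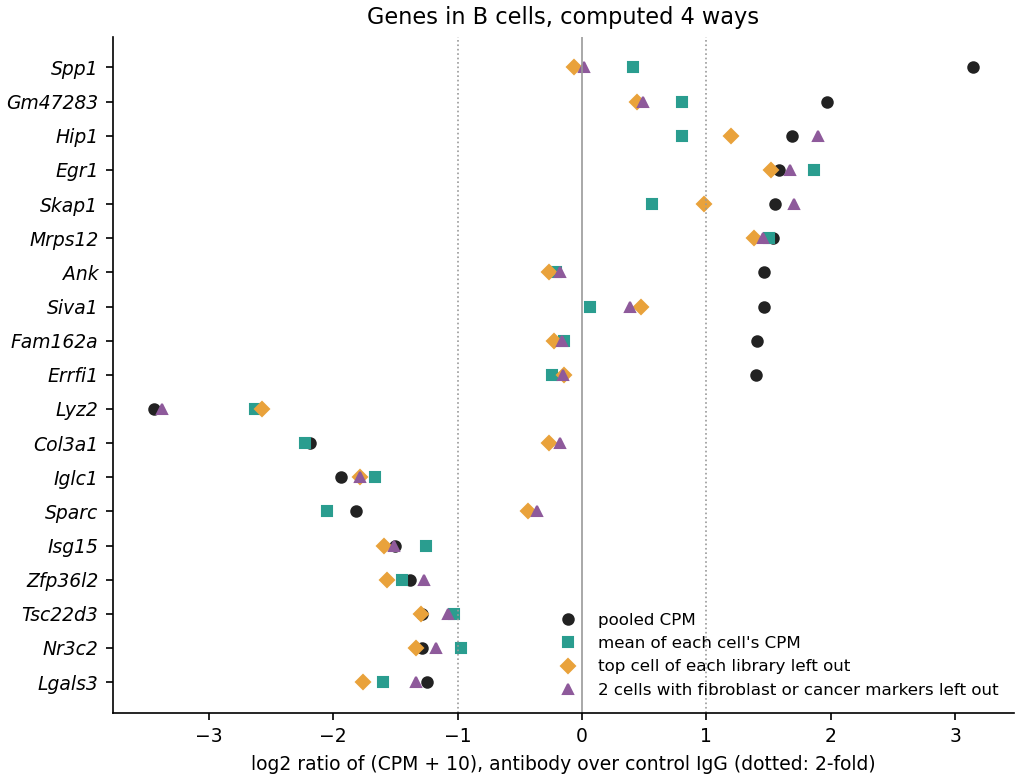
Log2 ratio of CPM plus 10 in B cells (antibody over control IgG, horizontal axis, dotted lines at 2-fold) of the named genes with the highest and lowest ratios, by pooled CPM, by the mean over cells, without the cell with most UMIs of the gene, and without the 2 mixed droplets. The 4 values of Egr1 lie from 1.52 to 1.86 and those of Zfp36l2 from -1.56 to -1.27, while those of Spp1 run from -0.066 to 3.14.

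Among the lower genes, Zfp36l2, an RNA-binding protein that promotes mRNA decay, had 342 CPM in 121 of 201 cells (60.2%) and 125 CPM in 42 of 133 cells (31.6%), a log2 ratio of -1.38. The ratio was 0.04 in T cells, 0.41 in C1q macrophages and 0.04 in dendritic cells of the same libraries. Tsc22d3, which glucocorticoids induce, had 509 and 203 CPM in B cells (-1.29), and ratios of -0.52, -0.44 and -0.75 in the same 3 classes. Isg15, a ubiquitin-like protein that interferon induces, had 63.3 and 15.9 CPM in B cells (-1.50), against 0.66, 0.61 and 1.13 in the others. Egr1 had ratios of 0.53 in T cells, 1.39 in macrophages and -0.87 in dendritic cells. Whether the ratios differ between the classes was not tested, since each rests on the same 2 libraries. Lyz2, the myeloid lysozyme, had 194 and 8.82 CPM in B cells (88 of 138 control UMIs in 1 cell) and 1236 and 460 CPM in the other kept cells. Lgals3, or galectin-3, had 110 and 40.6 CPM in B cells and 653 and 430 CPM in the others, and the part of RNA from those cells was not tested. Spata6 and Atraid each had 38 and 12 UMIs. Gm11342, annotated as antisense, and Gm43388, a noncoding gene near Iglc2 at chr16:19212660-19236776, each had 52 and 15 UMIs.

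Lists of B cell genes were read by their counts and medians beside the median of 0.01 over all genes, of which 48.5% were below 0. All 10 genes of the MHC class II pathway were below 0, none by 2-fold, with a median of -0.51. Cd74, the invariant chain, had 11103 and 7514 CPM, H2-Aa 2825 and 1878 CPM, H2-Eb1 2771 and 1896 CPM, and H2-Ab1 2136 and 1532 CPM. By the mean over cells 9 of 10 were below 0 with a median of -0.24, and without the 2 mixed droplets 9 of 10 with -0.34. Without the limit on Cd3 the median was 0.04 and 4 of 10 were below 0, so the direction depends on that limit. With free RNA subtracted the median was -0.52 with 10 of 10 below 0. The same 10 genes had medians of -0.23 in T cells (9 of 10 below 0), -0.30 in macrophages (9 of 10) and -0.0059 in dendritic cells (5 of 10). H2-Aa was the lowest of the 10 in B, T and dendritic cells in the summed UMIs. Its log2 ratio was then -0.59 in B cells, -0.48 in T cells, -0.39 in macrophages and -0.16 in dendritic cells. In B cells it became -0.32 by the mean over cells and -0.42 without the 2 mixed droplets, both weaker than the T cell value. In the S100a6 cluster, which holds both mixed droplets, H2-Aa had 2442 and 928 CPM, against 2976 and 2489 CPM in the other B cells.

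Of 15 genes of B cell receptor signalling, 14 were below 0 and none was 2-fold apart (median -0.25), but by the mean over cells 8 were below 0 (median -0.11). Bank1 had 2587 and 1628 CPM, Lyn, the kinase that starts and dampens the signal, 811 and 682 CPM, Syk 766 and 686 CPM and Blk 328 and 302 CPM. Of 12 transcription factors, 9 were below 0 (median -0.14) with 0 past 2-fold, and by the mean over cells the median was 0.13. Among them Bach2 had 2055 and 1663 CPM, Ets1 583 and 506 CPM, Ikzf3 560 and 520 CPM and Irf8 156 and 215 CPM. All 9 follicular genes were below 0 (median -0.17), though 4 of 9 by the mean over cells (median 0.05). They hold Fcmr, Fcer2a (144 and 81.1 CPM), Cd55 (251 and 173 CPM), Ighd (690 and 642 CPM) and Ccr7 (149 and 146 CPM). With equal weight for each cell, these 3 medians moved toward or past that of all genes, which was then 0.02.

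Activation genes went both ways. Of 12 listed genes 8 were tested, with 2 higher (Egr1 and Myc), 0 lower and a median of 0.28 (0.43 by the mean over cells). Nr4a1, a nuclear receptor that antigen receptor signalling induces, had 107 and 159 CPM (0.53). Cd83, an activation marker, had 331 and 439 CPM and Nfkbia, an inhibitor of NF-κB, 258 and 265 CPM, while the costimulatory ligand gene Cd86 had 349 and 199 CPM and the early marker Cd69 245 and 187 CPM. The 10 immediate-early and heat shock genes had a median of 0.07 and none past 2-fold, and by the mean over cells a median of 0.24 with 2 higher by 2-fold, Hspa1a (1.12) and Hspa1b (1.27). Junb had 806 and 954 CPM, Jund 853 and 850 CPM, Fos 255 and 257 CPM, and the stress-induced chaperones Hspa1a 217 and 390 CPM and Hspa1b 249 and 483 CPM. By the mean over cells 9 of the 10 were above 0. Of 15 interferon-stimulated genes 14 were in the files and 5 were tested, all below 0 (median -0.23) with 1 lower by 2-fold, Isg15. By the mean over cells 3 of the 5 were below 0, with a median of -0.10. Ifi27l2a had 428 and 367 CPM and Gbp2 77.4 and 37.0 CPM.

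**Figure D5:**
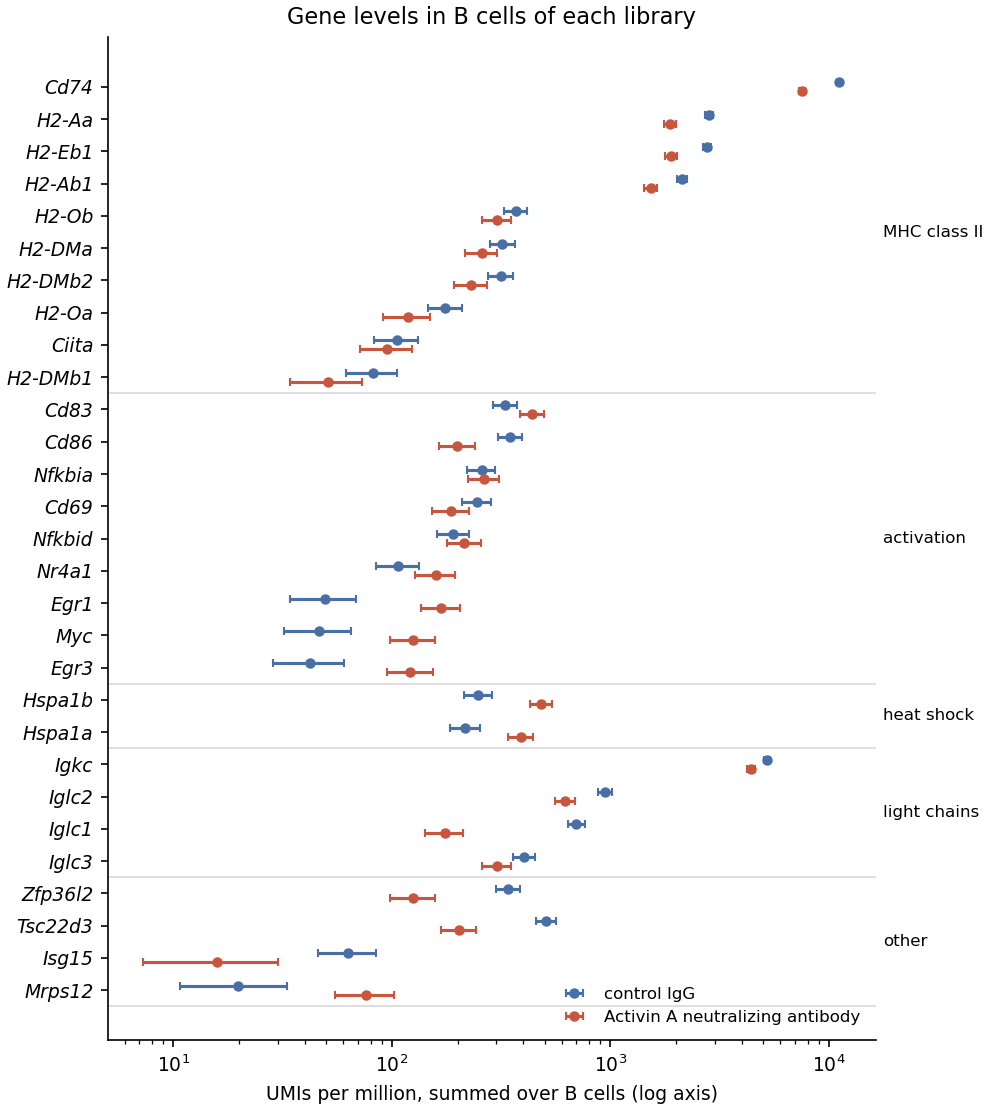
Levels of genes in B cells in UMIs per 1000000 UMIs (CPM, horizontal log axis) with exact 95% Poisson intervals, for control IgG (blue) and the Activin A neutralizing antibody (red), grouped by function. The 10 MHC class II genes lie to the left with the antibody, and Egr1, Egr3, Myc, Hspa1a and Hspa1b lie to the right.

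Of the activin and TGFβ pathway 14 genes were listed and 7 tested, 5 of them below 0 and none 2-fold apart, with a median of -0.32 (-0.27 by the mean over cells). The TGFβ receptor gene Tgfbr2 had 258 and 229 CPM, Tgfbr1 45.0 and 52.9 CPM, the inhibitory Smad7 141 and 91.7 CPM, Skil, a co-repressor that the pathway induces, 106 and 70.5 CPM, Smad2 110 and 74.1 CPM, Smad3 43.6 and 54.7 CPM and Smad4 73.2 and 56.4 CPM. Activin receptors were at the limit of detection. Acvr2a had 12 UMIs in each library, Acvr1b 7 and 9 and Acvr1 3 and 3, and Acvr2b had none. The activin subunit gene Inhba had 1 and 5 UMIs, in 1 cell of each library. Inhbb, another activin subunit gene, had none, and the activin-binding Fst had none. By the same limit of 3 counts, a count of 0 holds the share of cells with a UMI of the gene to at most 1.49% and 2.26%, not the share of cells that express it.

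The remaining lists held few genes past 2-fold. In the B cells 9 of 15 secretory genes were tested, 8 of them above 0, none 2-fold apart, with a median of 0.38 (0.42 by the mean over cells). Hspa5 had 348 and 504 CPM and Hsp90b1 334 and 522 CPM, while Mzb1 had 384 and 240 CPM. Of 14 division genes 6 were tested, all above 0 (median 0.53, but 0.01 by the mean over cells), with Ube2c higher (24 and 54 UMIs in 7 and 6 cells). Of 10 B-1 markers 3 were tested and S100a6 was higher, at 543 and 1143 CPM, although it was seen in 59 of 201 and 32 of 133 cells and the list's median of 0.82 became -0.14 by the mean over cells. Of 13 immunoglobulin constant genes and Jchain 8 were tested, with Ighg3 higher, Iglc1 and Ighg2b (106 and 19.4 CPM) lower and a median of -0.32 (-0.093 by the mean over cells and -0.15 without the 2 mixed droplets). The 5 tested receptors for survival factors and CD40 had a median of 0.11 (0.23 by the mean over cells) and the 8 tested homing receptors 0.07 (0.24 by the mean over cells), with none past 2-fold. Among these, Tnfrsf13c, the BAFF receptor gene, had 77.4 and 97.0 CPM, Gpr183, which guides B cells to follicle borders, 242 and 273 CPM, and Cxcr4 134 and 185 CPM. Of the 9 cytokine genes 2 were tested, Ltb (248 and 245 CPM) and Tgfb1 (103 and 127 CPM), with a median of 0.13 (0.48 by the mean over cells). Atypical memory genes had 2 tested (median 0.35, and 0.19 by the mean over cells), Zeb2 (262 and 409 CPM) and Fcrl5 (103 and 109 CPM). Of marginal zone genes Cr2 was tested (50.7 and 44.1 CPM), of germinal centre genes Bcl6 (125 and 145 CPM), and of immature B genes Vpreb3 (127 and 111 CPM) and Cd24a (117 and 89.9 CPM). By the mean over cells their log2 ratios or medians were 0.097, 0.45 and 0.027, against -0.17, 0.19 and -0.26 in the summed UMIs. Rag1, Igll1 and Dntt, genes of B cell precursors, had none.

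Markers of other cell types were counted in the B cells. Erythroid genes had 0 UMIs, Cd3 genes 0 by the rule, neutrophil genes 2 and 6 UMIs and the 8 T cell markers together 22 and 26 UMIs, led by Trbc2. The 7 macrophage markers had 533 and 351 CPM in B cells, against 2469 and 633 CPM in the other cells, and Apoe held 349 of 379 and 184 of 199 of those UMIs. Pecam1, an endothelial marker that lymphocytes also carry, had 157 and 118 UMIs in 88 and 65 B cells, while the endothelial gene Cdh5 had none. The fibroblast markers had 1431 and 132 CPM, 993 of 1017 control UMIs in 1 cell. The 6 dendritic markers had 64.7 and 33.5 CPM (46 and 19 UMIs). The 5 NK markers had 19.7 and 86.4 CPM (14 and 49 UMIs), and 0 and 3 B cells held at least 3 of these UMIs. The macrophage and dendritic marker levels and the free RNA share were thus higher in the control library, as were the MHC class II levels. The MHC class II median was -0.52 with free RNA subtracted and -0.49 in cells with no C1q UMI, with 10 of 10 genes below 0 in both, against -0.51. Without cells holding 3 or more UMIs of other markers, macrophage and dendritic markers not among these, it was -0.28 with 9 of 10 below 0. It was -0.22 (8 of 10) with each cell thinned to 2000 UMIs and -0.23 (9 of 10) without the deepest 5% of cells. The part of RNA from other cells in the MHC class II levels was not tested.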

How the data were processed

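Libraries were assigned to control IgG or antibody by their titles. As deposited, the matrices hold UMI counts for each gene in each barcode (32285 genes, 98174850 and 74117462 UMIs), made by the authors with Cell Ranger without normalization. The file headers name version 4 and the submitters' processing notes 7.0.1 with mm10. Positions are from GENCODE M21 (32158 identifiers matched). Cells were kept with 1000–8500 genes, 1000–100000 UMIs and up to 10% mitochondrial UMIs. Members and gene lists were chosen with earlier results of these data known. Genes were named if they belonged to the rule or markers, were among the most abundant of a list or 2-fold apart, or led a comparison (10 highest and 10 lowest between libraries with a UMI in 5% of the cells of 1 library, 20 over other cells, 15 in antibody-secreting cells, 5 per cluster), and the 20 genes 2-fold apart in 4 computations were added afterwards. CPM came from summed counts, with a pseudocount of 10 CPM, a minimum of 50 UMIs and 2-fold limits. No test was run. Clustering used scanpy 1.11.5 and leidenalg 0.10.2 (resolution 0.5, seed 1), intervals scipy 1.17.1. Alternatives changed the selecting UMIs, the Cd3 and Jchain limits, the depth, the filters and the weighting of cells. A few genes are not reported here.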

Additional observations from a re-analysis of the deposited data

How the results depend on the processing

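No paired analysis was possible because the groups hold 1 pooled library apiece, and no replicate could be left out. The log2 ratio of the B-lineage share ran from -0.41 to 0.00 and that of the antibody-secreting share from -2.33 to -1.33 over the alternatives, the last without the deepest 5% of cells, and Jchain limits of 10 or 50 UMIs gave identical cells. Of 690 values recomputed for 46 named genes, 622 kept their direction and 68 changed sign, 28 of them for genes under 2-fold apart and 40 for genes past it. The number of genes 2-fold higher (70) became 20 with at least 5 selecting UMIs, 255 with at least 2, 20 without the Cd3 limit, 10 after thinning, 15 without the deepest 5% of cells, 11 without cells holding other markers, 25 by the mean over cells, 161 with a minimum of 20 UMIs, 22 with 100, 13 without the top cell of each gene and 22 without the 2 mixed droplets. The number lower (30) became 73 with at least 2 selecting UMIs, 144 without the Cd3 limit, 18 after thinning, 59 with a pseudocount of 1, 84 with a minimum of 20 UMIs and 16 with 100. The percent of antibody-secreting cells with Ighm became 0.0 after thinning, which left 1 such cell because the Jchain limit was not rescaled. Genes under 2-fold turned as well. Without the Cd3 limit Ighm had 0.41, Ighd 0.51, Igkc 0.36, Cd79a 0.012, Cd79b 0.37, Ms4a1 0.36 and H2-Ab1 0.025, and with at least 5 selecting UMIs Ighm had 0.15, Ighd 0.085, Cd79b 0.041 and Ms4a1 0.036. Ighm, Ighd, Cd79b or Ms4a1 also turned under 6 other alternatives. Of genes past 2-fold, with at least 5 selecting UMIs the log2 ratios turned for Ank (-0.37), Fam162a (-0.12) and Errfi1 (-0.19). Without the Cd3 limit they turned for Spp1 (-0.61), Gm47283 (-0.40), Skap1 (-0.52), Ank (-0.42), Siva1 (-0.045), Fam162a (-0.14), S100a6 (-0.38) and Ube2c (-0.85). After thinning they turned for Gm47283 (-0.049), Skap1 (-0.049), Ank (-0.049), Siva1 (-0.36), Fam162a (-0.67), Errfi1 (-0.74) and Ighg3 (-2.50). Without the deepest 5% they turned for Spp1 (-0.26), Ank (-0.49), Fam162a (-0.16), Errfi1 (-0.22) and Ighg3 (-0.38), and without cells holding other markers for Spp1 (-0.34), Skap1 (-0.41), Ank (-0.23), Fam162a (-0.29), Errfi1 (-0.50), Ube2c (-1.55) and Ighg3 (-0.86). By the mean over cells they turned for Ank (-0.21), Fam162a (-0.14) and Errfi1 (-0.24), without the top cell for Spp1 (-0.066), Ank (-0.27), Fam162a (-0.22) and Errfi1 (-0.15), and without the 2 mixed droplets, an alternative chosen after seeing the data, for Ank (-0.17), Fam162a (-0.16) and Errfi1 (-0.15). Apart from fewer cells or UMIs under an alternative, the cause was not tested. The 15 antibody-secreting cells limit what can be said of isotypes and variable genes.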
